A study of Mus musculus with 30 samples.

Results

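Cultured pancreatic islets were compared with freshly isolated ones, both from vehicle groups without cadmium. The 5 libraries of islets cultured for 96 hours, titled Vehicle 96hours, were set against the 5 libraries of islets from mice that had spent 6 weeks on vehicle, titled Vehicle 6weeks, which are called fresh because no culture is stated for them. These 10 libraries, chosen by their titles, are part of 30, and the comparison ran over all genes. All islets came from male wild-type C57BL/6N mice, went through a Biocoll density gradient, and Trizol was used to extract RNA, per the labels' protocols. The sources used here do not give ages, the culture medium and its glucose, what the vehicle was in each setting or the time between isolation and extraction. The other 20 libraries are islets of mice exposed for 6 or 18 weeks to vehicle or 1 mM cadmium chloride, and islets cultured for 96 hours with 0.5 uM cadmium chloride. Of these, the 6 vehicle libraries of 18 weeks served as another set of uncultured islets, and the 4 cadmium libraries of 6 weeks and 5 of culture as another pair of groups with the same split.

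An islet is a small organ inside the pancreas. Its beta, alpha, delta and PP cells secrete insulin, glucagon, somatostatin and pancreatic polypeptide, and they are fed by a dense bed of fenestrated capillaries, held by a thin matrix and patrolled by resident macrophages. Collagenase isolation cuts the islet from its blood supply, leaves acinar and ductal fragments attached to some islets, and is itself a stress that switches on immediate early genes within minutes. In culture there is no blood flow, and beta cells see whatever glucose and amino acids the medium holds.

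Total counts were 49564350 to 55504925 in the fresh and 24267100 to 26501641 in the cultured libraries. Depth and culture followed the same split and cannot be told apart, and the labels name no batch. The labels do not state that replicates are separate animals or cultures. The p-values thus measure the spread among these libraries alone, and that spread may be technical. The first principal component, which separated cultured from fresh libraries, held 86.5% of the variance. Within the fresh group, libraries 4 and 5 held less macrophage, lymphocyte and fibroblast transcript than libraries 1 to 3, and libraries 1 and 2 held less immediate early transcript than libraries 3 to 5, so results that rest on them are given with that spread.

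Of 17605 genes that passed the filter on low counts, 11933 (67.8%) differed between cultured and fresh islets at an adjusted p under 0.05 by the quasi-likelihood test of edgeR. There were 5812 higher in culture (33.0%) and 6121 lower (34.8%), and the median log2 fold change over all tested genes was -0.0043. Tested against a change of at least 2-fold, 1097 genes were higher (6.23%) and 1034 lower (5.87%). Levels are CPM, read counts scaled to a common library size by the trimmed mean of M values (TMM), and are given per library or as mean ± SD of 5 libraries. Fold changes are cultured over fresh on the log2 scale, given ± SE. The groups did not overlap for 26.0% of tested genes as higher and 27.0% as lower. With so many genes called, the counts below are read against these percentages and against the size of each change.

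How much of a gene's sequence also occurs in other genes went with its fold change. For genes with none of their 31-base stretches in another gene the median log2 fold change was -0.08 (6307 genes), and for genes with over 80% of such stretches it was 2.38 (226 genes). Against the 18-week vehicle islets, which were not cultured, the same classes had medians of 0.02 and -0.22. Rps29, a protein of the small ribosomal subunit, went from 0.302 ± 0.095 to 200.1 ± 12.9 CPM, or 9.36 ± 0.10 on the log2 scale (edgeR, adjusted p = 2.1e-16), and it stood at -0.73 against 18 weeks. All 10 of the largest increases picked by the rule for named genes were ribosomal protein genes. Of 75 ribosomal protein genes 72 were higher with a median of 3.33, against 0.05 with the 18-week libraries. How reads that map to several places were counted is not given in the sources used here, and its part in these differences was not tested. Counts over lists below include every tested member unless members with at most 5% shared sequence are given apart. Of the 14480 tested genes with at most 5% shared sequence 65.7% were called, 3995 higher (27.6%) and 5525 lower (38.2%), and past 2-fold 417 were higher (2.88%) and 849 lower (5.86%). For most genes named below, and for each whose call or sign changed with it, the fold change against 18 weeks is printed beside that against 6 weeks. The 18-week vehicle libraries held 9092759 to 51404595 counts. They also differed from the other 2 groups in kinds of RNA. Rn7sk, a small structural RNA, had a mean of 33721.6 CPM there, against 1.56 in fresh and 2.81 in cultured libraries. Its log2 fold change was 0.85 against 6 weeks and -13.55 against 18 weeks. Replication-dependent histone genes had medians of -0.11 and -2.32. The cause was not tested, and every value against 18 weeks carries this difference too. Both comparisons use the same 5 cultured libraries, so the values stand side by side and the latter is not an independent repeat.

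**Figure D1:**
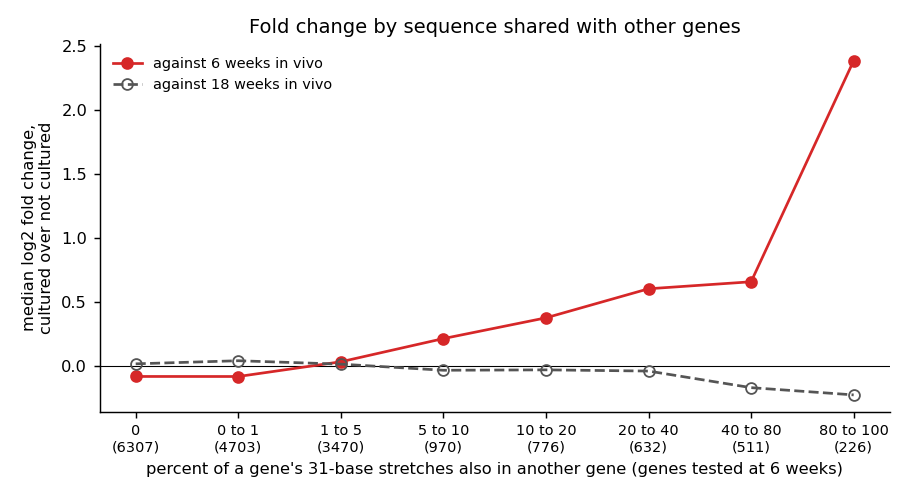
Median log2 fold change of cultured over uncultured vehicle islets (y axis) for genes grouped by the percent of their 31-base stretches that also occur in another gene (x axis, number of genes tested against 6 weeks in brackets). Against 6 weeks (filled circles, n = 5 and 5 libraries) the median goes from -0.08 in genes with no shared sequence to 2.38 in those with over 80%, while against 18 weeks (open circles, n = 5 and 6) it goes from 0.02 to -0.22.

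Acinar transcripts were at a trace level after culture. Acinar cells make the digestive enzymes of the pancreas, and their 42 tested markers were lower in culture in 42 of 42 cases, with a median log2 fold change of -9.83. With the 5 markers that had no count in culture set at their bound the median was -9.39. They held between 2.78% and 5.14% of all counts in the fresh libraries and between 0.00933% and 0.0168% in the cultured ones, a 304-fold difference of the means. The groups did not overlap (exact two-sided permutation test, p = 0.00794, the smallest that 5 against 5 allows; adjusted p = 0.0110 over 50 shares). In these bulk samples, fewer cells of a type and less RNA per cell cannot be told apart.

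Pnlip, the pancreatic lipase (chr19:58652498-58681788, plus strand, mm10), stood at 4452, 6285, 3966, 3529.8 and 4717 CPM in the fresh libraries and 0.111, 0.11, 0.0355, 0.19 and 0.108 CPM in the cultured ones. Its log2 fold change was -15.31 ± 0.26 (edgeR, adjusted p = 1.8e-14), and -13.17 against the 18-week libraries. All 5 cultured libraries together held 15 Pnlip reads. Cpa1, a carboxypeptidase, had 0.0369, 0, 2.2, 2.32 and 0.108 CPM in the cultured libraries against 2533 to 4854 CPM in the fresh ones, a log2 fold change of -11.85 ± 0.50 (adjusted p = 2.5e-10). Cultured libraries 3 and 4 carried most of the remaining Cpa1. The same 2 libraries held most of the remaining Cel, the bile salt activated lipase, at 0.0369, 0.11, 1.81, 1.52 and 0.252 CPM in cultured libraries 1 to 5, against 2517 to 4407 CPM in the fresh ones. Ptf1a, the transcription factor that defines the acinar lineage, went from 1.19 ± 0.504 CPM to no count in any cultured library, which makes it at least 46.9-fold lower by a floor of 3 counts over the group. Cela1, a pancreatic elastase, kept 10 to 16.8 CPM in culture against 2551 to 4304 CPM in fresh islets. Trypsinogens and amylases share sequence with each other and their single values are uncertain. Prss2, a trypsinogen, went from 2624 ± 615 to 2.98 ± 3.78 CPM.

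The Reg family, secreted C-type lectins of acinar and stressed islet cells, fell with the acinar genes: 4 of 4 tested members were lower, with a median of -6.77. Reg1 stood at 684, 1060.2, 495, 245 and 649.6 CPM in the fresh libraries and 0, 0, 7.16, 5.43 and 0.575 CPM in the cultured ones. Cultured libraries 1 and 2 had no Reg1 count, and libraries 3 and 4 held most of the rest, as for Cpa1. Ductal markers fell less, with 15 of 21 lower, 3 higher and a median of -0.56, and their share of counts went from 0.104% ± 0.00514 to 0.0932% ± 0.00454. Single members ran from -9.76 to 0.98, with 6 lower and 0 higher past 2-fold, so the median does not stand for each of them. Cftr, a defining duct marker, went from 0.633 ± 0.217 to 0.125 ± 0.0511 CPM (log2 -2.31 ± 0.34), with 17 counts over all cultured libraries. Against 18 weeks the ductal median was -0.10 and the share was 0.0932% in culture against 0.0864% (exact permutation test, adjusted p = 0.211). Krt19, a keratin of duct epithelium, went from 4.65 ± 2.82 to 0.775 ± 0.347 CPM (log2 -2.57 ± 0.40, adjusted p = 9.1e-05), but was -0.40 against 18 weeks. Sox9, a transcription factor of duct cells, went from 1.93 ± 0.269 to 1.09 ± 0.238 CPM (log2 -0.82 ± 0.17, adjusted p = 7.4e-04) and was 1.77 against 18 weeks, the opposite sign. The direction of Sox9 therefore depends on which uncultured group it is set against.

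**Figure D2:**
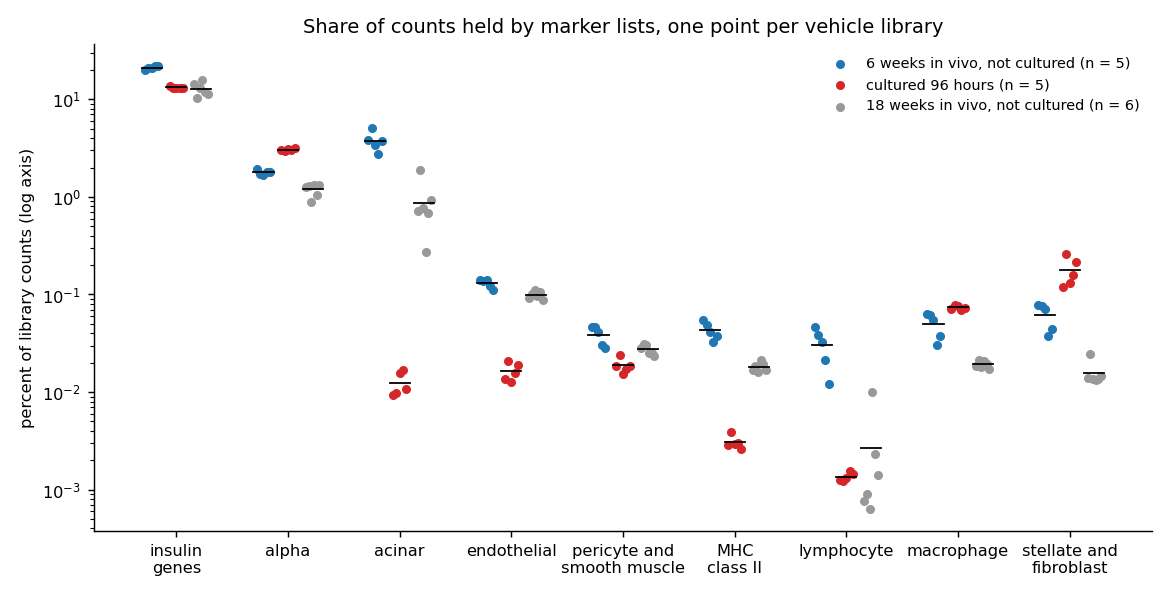
Percent of each library's counts (y axis, log scale) held by 9 groups of marker genes, with 1 point per vehicle library and a bar at the group mean: fresh at 6 weeks (n = 5), cultured (n = 5) and uncultured at 18 weeks (n = 6). The cultured acinar shares, 0.00933% to 0.0168%, lie below every uncultured library, whereas the fibroblast shares, 0.118% to 0.257%, lie above all of them.

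The capillary genes fell together. All 30 endothelial markers tested were lower in culture, with a median of -2.99 against 6 weeks and -2.45 against 18 weeks. Their share of counts went from 0.131% ± 0.0134 to 0.0163% ± 0.00335, an 8.02-fold difference with no overlap (exact two-sided permutation test, p = 0.00794, adjusted p = 0.0110). Kdr, the main VEGF receptor of endothelium (chr5:75932827-75978458, minus strand, mm10), stood at 175, 167, 175, 183 and 159 CPM in the fresh libraries and 7.42, 11.4, 5.46, 7.94 and 10.9 CPM in the cultured ones. The fresh values lie close together, far above every cultured one. The log2 fold change of Kdr was -4.32 ± 0.14 (edgeR, adjusted p = 1.8e-11), against -4.26 with the 18-week libraries.

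Plvap forms the diaphragms of fenestrated capillaries, the kind islets have. It went from 135 ± 15.6 to 4.63 ± 1.2 CPM (log2 -4.86 ± 0.14, adjusted p = 3.7e-12; -3.90 against 18 weeks). Btnl9, a butyrophilin-like gene of capillary endothelium, went from 34.5 ± 1.78 to 0.658 ± 0.25 CPM (log2 -5.70 ± 0.13; -5.95 against 18 weeks). Esm1, a proteoglycan secreted by endothelial cells exposed to VEGF, changed by -3.12 on the log2 scale, and Flt1, a decoy and receptor for VEGF, by -4.00. Pecam1 and Cdh5, which hold endothelial cells to each other, fell less, at -2.88 ± 0.18 and -1.89 ± 0.17. Vegfa, the growth factor that beta cells supply to these vessels, went from 523 ± 25.2 to 650.0 ± 23.6 CPM (log2 0.31 ± 0.043, adjusted p = 2.9e-05). Lama3, a laminin chain, went from 23.7 ± 1.48 to 0.861 ± 0.168 CPM (log2 -4.77 ± 0.10; -4.76 against 18 weeks).

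Mural cells, which wrap the capillaries, gave 12 lower and 3 higher of 16 markers, with a median of -1.66 that became -0.17 against 18 weeks. Rgs5, a regulator of G protein signalling and the classic pericyte marker, fell against both, from 175 ± 19.3 to 52.8 ± 8.68 CPM (log2 -1.73 ± 0.10, adjusted p = 1.1e-08; -1.78 against 18 weeks). Acta2, smooth muscle actin, stood at 58.4, 65.6, 29.8, 14.2 and 18.1 CPM in the fresh libraries and 13.3, 13.4, 12.3, 10.8 and 12.2 CPM in the cultured ones, so the fresh libraries themselves were spread widely and libraries 4 and 5 came close to the cultured range. Its log2 fold change was -1.59 ± 0.37 (adjusted p = 0.00207), but 0.47 against 18 weeks. Pdgfrb, the PDGF receptor of mural and stellate cells, rose by 0.45 ± 0.14 (adjusted p = 0.0142), or by 0.31 without fresh libraries 4 and 5 (adjusted p = 0.0719, no longer called). The mural markers therefore did not move as 1 group.

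Class II genes of antigen presentation and most tested lymphocyte markers were lower than in the fresh libraries. Class II molecules of the major histocompatibility complex present peptides on dendritic cells, B cells and macrophages, and their 12 tested genes were lower in 12 of 12 cases, with a median of -4.40 (-2.10 against 18 weeks). Cd74, the chaperone of class II, stood at 265, 246, 209, 157 and 187 CPM in the fresh libraries and 9.89, 12, 9.33, 9.08 and 7.23 CPM in the cultured ones, or -4.49 ± 0.16 on the log2 scale (edgeR, adjusted p = 4.3e-11). Their share of counts fell 13.9-fold, from 0.0430% ± 0.00902 to 0.00309% ± 0.000498. H2-Aa went from 87.9 ± 15.9 to 5.19 ± 1.16 CPM.

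Lymphocyte markers were lower in 9 of 13 cases and higher in 2, with a median of -5.96. The higher ones were Cd4 (log2 1.25 ± 0.31, and 2.96 against 18 weeks) and Il7r (log2 2.02 ± 0.30, and 2.23 against 18 weeks). The list held 0.0120% to 0.0463% of counts in fresh, 0.00123% to 0.00154% in cultured and 0.000629% to 0.0101% in 18-week libraries. Igkc, the constant part of the kappa light chain, stood at 152, 137, 80.3, 53.7 and 32.5 CPM in the fresh libraries and 0, 0.146, 0.0355, 0.114 and 0.144 CPM in the cultured ones. Fresh libraries 4 and 5 were the lowest of the fresh group, and still far above culture. On the log2 scale Igkc changed by -9.97 ± 0.74 (adjusted p = 9.3e-08), and it was -5.86 against 18 weeks. Cd79a, part of the B cell receptor, did not pass, at -0.04 ± 0.14 (adjusted p = 0.826), but passed as higher against 18 weeks (0.70). Cd3e, part of the T cell receptor, was too low to test, with 0.166 ± 0.0799 CPM in fresh islets and no count in culture. Against 18 weeks only 6 of the markers passed the filter, with a median of 0.65. Red cell transcripts were lower. Hbb-bs, an adult beta globin, went from 10.2 ± 3.24 CPM to 1 count over all cultured libraries, with a ratio of fresh to cultured of 1218 (95% counting interval 218 to 48129). Hba-a1, an alpha globin, went from 2.27 ± 1.12 CPM to no count, at least 91.1-fold lower by the floor of 3 counts over the group. Globin copies share sequence, so the split between them is uncertain.

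Macrophage markers took both directions. Of 26 tested, 7 were higher, 11 lower and 8 not called, with a median of -0.30, while against 18 weeks 19 of 23 were higher and none lower, with a median of 1.29. Without fresh libraries 4 and 5 the median was -0.46 with 16 lower, and without fresh libraries 1, 2 and 3 it was 0.31 with 8 lower, so the sign of the list depends on which fresh libraries are used. The share of counts was nevertheless higher in every cultured library, at 0.0695% to 0.0784% against 0.0303% to 0.0633%, but the call was lost with acinar, Reg and insulin genes out of the denominator (exact permutation test, adjusted p = 0.0781). Lyz2, lysozyme, which is part of that share, rose from 111 ± 45.9 to 282 ± 27.2 CPM (log2 1.34 ± 0.24, adjusted p = 2.8e-04).

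Cd163, the haemoglobin scavenger receptor of perivascular macrophages, stood at 14.6, 19.5, 15.6, 2.06 and 2.38 CPM in the fresh libraries and 0.0369, 0.183, 0.0709, 0 and 0.0719 CPM in the cultured ones. Fresh libraries 1 to 3 were high and libraries 4 and 5 well below them, yet all exceeded culture. Its log2 fold change was -7.15 ± 0.96 (edgeR, adjusted p = 2.4e-05). Mrc1, the mannose receptor found on the same cells, went from 17.2 ± 11.7 to 1.78 ± 0.517 CPM (log2 -3.27 ± 0.56; -0.37 against 18 weeks). Csf1r, the receptor on which macrophages depend, and Adgre1, the F4/80 antigen, stood at -1.29 and -0.75, and at 0.45 and 0.58 against 18 weeks. Without fresh libraries 1, 2 and 3 Adgre1 was at -0.09 (adjusted p = 0.541). C1qa, a complement component of resident macrophages, did not pass, at 0.20 ± 0.093 (adjusted p = 0.0701). It passed as higher without fresh library 1 (0.27) or 2 (0.26), without cultured library 2 (0.24) and without fresh libraries 1, 2 and 3 together (0.44). The same held with the replicate number as a block (0.21, adjusted p = 0.0387) and against 18 weeks (0.65).

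Opposite to these, a set of lysosomal and lipid-associated macrophage genes was higher in culture against both uncultured groups. Gpnmb, a transmembrane glycoprotein of lysosome-rich macrophages (chr6:49036546-49070929, plus strand, mm10), stood at 3.12, 1.86, 1.85, 0.846 and 0.715 CPM in the fresh libraries and 127, 164, 164, 155 and 137 CPM in the cultured ones. Every cultured library was far above every fresh one. Gpnmb changed by 6.45 ± 0.24 on the log2 scale (edgeR, adjusted p = 5.1e-11; 9.22 against 18 weeks). Trem2, a lipid receptor, went from 1.22 ± 0.283 to 8.89 ± 0.622 CPM (log2 2.85 ± 0.14; 3.58 against 18 weeks). Lgals3, galectin-3, went from 4.48 ± 2.08 to 44 ± 10.8 CPM (log2 3.28 ± 0.27; 4.59), and Cd68, a lysosomal sialomucin, from 7.26 ± 2.51 to 24.7 ± 3.6 CPM (log2 1.76 ± 0.20; 3.04). Gpnmb, Trem2, Lgals3, Lyz2 and Csf1r were singled out after their values were seen, and which cells made these transcripts was not tested.

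Most matrix genes of fibroblasts and stellate cells rose. Of 27 tested, 20 were higher and 2 lower, with a median of 1.13, and 25 were higher against 18 weeks with a median of 2.88. The median was 0.83 without fresh libraries 4 and 5, and 1.87 without fresh libraries 1, 2 and 3. Their share of counts went from 0.0617% ± 0.0194 to 0.177% ± 0.0589, with no overlap. Postn, periostin, a matricellular protein of activated stroma, stood at 10.9, 10.3, 10.2, 6.59 and 7.73 CPM in the fresh libraries and 118, 203, 113, 123 and 169 CPM in the cultured ones. Cultured libraries 2 and 5 were the highest, and no cultured value came near the fresh range. Postn rose by 3.99 ± 0.19 on the log2 scale (edgeR, adjusted p = 9.6e-10; 5.13 against 18 weeks).

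Collagens followed. Col1a1, the main chain of type I collagen, went from 23.9 ± 10 to 122 ± 51.3 CPM (log2 2.35 ± 0.33; 6.45 against 18 weeks). Col5a2 rose by 3.54 ± 0.24 and Col6a3 by 2.31 ± 0.16. Timp1, an inhibitor of matrix metalloproteinases, rose from 0.566 ± 0.126 to 5.19 ± 1.99 CPM (log2 3.19 ± 0.27; 2.94 against 18 weeks). Fn1, fibronectin, stood at 163, 190.2, 160.4, 56.4 and 118 CPM in the fresh libraries and 177, 395, 175, 216 and 298 CPM in the cultured ones. Its groups overlapped against 6 weeks, at 0.87 ± 0.29 (adjusted p = 0.0182), a call lost without cultured library 2 (0.65, adjusted p = 0.0596), but it was 8.17 higher on the log2 scale against 18 weeks. Dcn, decorin, depended on the uncultured group. It did not pass against 6 weeks, at -0.89 ± 0.38 (adjusted p = 0.0539). It passed as lower without fresh library 4 (-1.09) or 5 (-1.04), without both (-1.33) or without cultured library 2 (-1.06). Against 18 weeks Dcn passed as higher (1.29, edgeR, adjusted p = 0.0489). Pdgfra, a defining fibroblast marker, went from 3.55 ± 1.82 to 2.02 ± 1.15 CPM. It did not pass, at -0.82 ± 0.45 (edgeR, adjusted p = 0.121), nor did it against 18 weeks (1.13, adjusted p = 0.124). Col10a1, a short-chain collagen known from hypertrophic cartilage, had the largest increase of any named protein-coding gene with at most 5% shared sequence, at 21.3, 22.8, 15.6, 20.5 and 18.8 CPM in culture against 0.173 to 0.26 CPM in fresh islets (log2 6.51 ± 0.14; 3.60 against 18 weeks). Laminins, collagens and other genes of the basement membrane were lower in 9 and higher in 2 of 15 cases. Their median was -0.54, which was 0.27 against 18 weeks, and past 2-fold 2 were higher and 3 lower. The higher ones were Col18a1, from 12.8 ± 5.06 to 92.5 ± 30.4 CPM (log2 2.85 ± 0.27, and 5.16 against 18 weeks), and Lama1. Lama1 went from 0.236 ± 0.128 to 1.35 ± 0.93 CPM (log2 2.49 ± 0.49, and 2.40 against 18 weeks). Schwann cell markers were higher in 7 and lower in 4 of 16, with Sox10, the transcription factor of the neural crest lineage, going from 1.65 ± 0.673 to 4.01 ± 1.12 CPM (log2 1.28 ± 0.26).

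**Figure D3:**
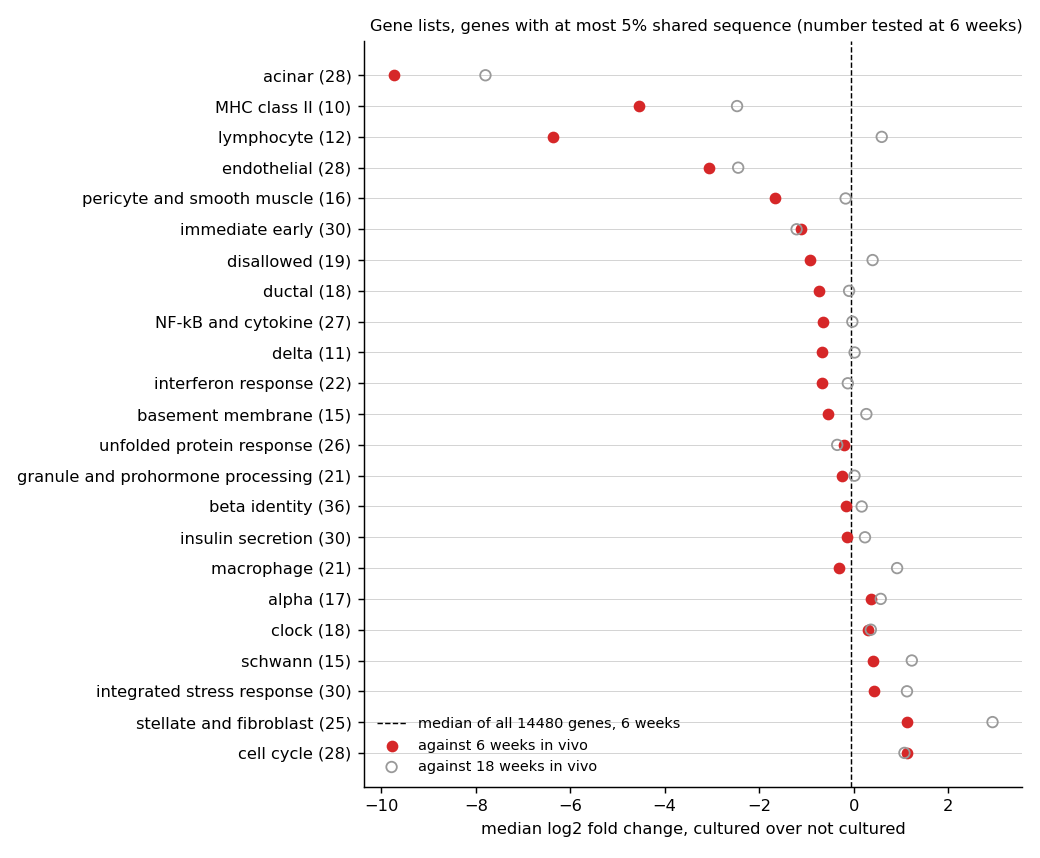
Median log2 fold change of cultured over uncultured vehicle islets (x axis) in 23 gene lists, over members with at most 5% shared sequence (number tested against 6 weeks in brackets): filled circles against 6 weeks, open circles against 18 weeks, dashed line the median of all 14480 such genes. Acinar, endothelial, class II and immediate early lists lie left of the line against both uncultured groups, while lymphocyte, disallowed and basement membrane lists are among those that change side.

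The defining hormones of the islet, Ins1, Ins2, Gcg, Sst and Ppy, were abundant in all 10 libraries, and Sst stood at 979.7 to 1211 CPM even where it was lowest, in culture. The insulin genes held 20.2% to 21.9% of counts in fresh and 13.0% to 13.7% in cultured islets, with no overlap (exact two-sided permutation test, p = 0.00794, adjusted p = 0.0110). In the 18-week libraries they held 10.4% to 15.8%, a range that includes the cultured values. Ins1, the retrogene copy of insulin (chr19:52264297-52265476, plus strand, mm10), stood at 61599.9, 65621, 66404, 64631 and 67172 CPM in the fresh libraries and 30146, 30733, 28561, 28758 and 29784 CPM in the cultured ones. The log2 fold change of Ins1 was -1.14 ± 0.065 (edgeR, adjusted p = 6.3e-09), and -0.88 against 18 weeks. Ins2, the ancestral copy, went from 162944 ± 9496 to 93758 ± 3804 CPM, a log2 fold change of -0.80 ± 0.08 (adjusted p = 1.7e-06) that became 0.18 against 18 weeks. The copies share sequence, so their split is uncertain. Iapp, amylin, which beta cells release with insulin, did not pass the test, at -0.06 ± 0.059 (adjusted p = 0.373), but passed as lower against 18 weeks (-0.53) and with length and GC offsets (-0.65).

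The transcription factors of beta cells split. Of 38 beta cell identity genes, 9 were higher, 22 lower and 7 not called, and the median of -0.20 lies close to that of all genes. Nkx6-1, which maintains the beta cell state, stood at 412, 394, 424, 426 and 423 CPM in the fresh libraries and 285, 246, 234, 223 and 213 CPM in the cultured ones, with no overlap and a change of -0.79 ± 0.067 on the log2 scale (edgeR, adjusted p = 3.1e-07), but 0.34 against 18 weeks. Neurod1, an activator of the insulin gene, fell from 207 ± 8.52 to 136 ± 7.3 CPM (log2 -0.60 ± 0.044; 0.08 against 18 weeks). Mafa, the factor of mature beta cells, rose from 301 ± 60.5 to 438 ± 72 CPM (log2 0.54 ± 0.14, adjusted p = 0.00401; 0.40 against 18 weeks), and Isl1, a LIM factor of all endocrine cells, rose by 0.50 ± 0.063 (0.55 against 18 weeks). Pdx1, the factor shared by the pancreatic lineage and beta cells, did not pass, at 0.02 ± 0.058 (adjusted p = 0.797), but passed as higher against 18 weeks (0.47).

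Among the glucose-sensing and secretory genes named here, G6pc2 is given first. It encodes the islet glucose-6-phosphatase, which removes phosphate from glucose-6-phosphate, and it stood at 2585, 3542, 4727, 2976 and 4221 CPM in the fresh libraries and 1595, 1450.1, 1533, 1500.2 and 1412 CPM in the cultured ones. The change of G6pc2 was -1.27 ± 0.13 on the log2 scale (edgeR, adjusted p = 2.8e-06), and -1.04 against 18 weeks, with no overlap at 6 weeks. Slc2a2, the glucose transporter GLUT2, did not pass, at -0.25 ± 0.12 (adjusted p = 0.072), though it passed as lower without fresh library 2 (-0.32) or 3 (-0.29) or cultured library 1 (-0.30), and against 18 weeks (-0.44). It also passed as lower without fresh libraries 1, 2 and 3 together (-0.54) and with length and GC offsets (-0.39). Abcc8 and Kcnj11, which form the ATP-sensitive potassium channel, changed by -0.38 ± 0.051 and -0.39 ± 0.036, but were 0.21 and 0.33 against 18 weeks. Of 30 genes of the secretion machinery 6 were higher and 18 lower (median -0.14; 0.24 against 18 weeks). Of 22 granule and prohormone genes 4 were higher and 13 lower (median -0.23; 0.02). Pcsk2, a prohormone convertase, fell from 3899 ± 249.8 to 2477 ± 111 CPM (log2 -0.65 ± 0.055; 0.02 against 18 weeks), and Prlr, the prolactin receptor, changed by -0.93 ± 0.069 (-0.48).

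Alpha cell transcripts were higher. Of 18 markers 12 were higher and 3 lower, with a median of 0.37, or 0.67 against 18 weeks, and their share rose from 1.80% ± 0.0995 to 3.05% ± 0.0855. Gcg, proglucagon, stood at 18419, 16801, 15890.4, 17371 and 17603 CPM in the fresh libraries and 25729.5, 24472, 26378, 25144 and 26295 CPM in the cultured ones, or 0.57 ± 0.062 on the log2 scale (edgeR, adjusted p = 3.1e-06; 1.26 against 18 weeks). Etv1 and Slc38a5, a transcription factor and a glutamine transporter of alpha cells, rose by 1.12 ± 0.038 and 0.92 ± 0.084 (0.77 and 2.10 against 18 weeks).

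Delta cell markers were lower in 7 and higher in 3 of 11, with a median of -0.68 that was 0.02 against 18 weeks. Sst, somatostatin, went from 1777 ± 179 to 1111 ± 88.8 CPM (log2 -0.68 ± 0.075, adjusted p = 3.9e-06; -0.12 against 18 weeks). Lepr, the leptin receptor, which delta cells share with endothelium, stood at 6.18, 6.02, 5.45, 2.6 and 3.05 CPM in the fresh libraries and 0.0738, 0.183, 0.106, 0.076 and 0.216 CPM in the cultured ones. Its log2 fold change of -5.11 ± 0.38 (adjusted p = 9.4e-08) was -4.84 against 18 weeks. Of the remaining hormones, Ppy, pancreatic polypeptide, did not pass, at -0.32 ± 0.16 (adjusted p = 0.0895), but passed as lower without cultured library 3 (-0.42), without fresh libraries 4 and 5 (-0.46) and with no count filter (-0.37). Against 18 weeks Ppy passed in the opposite direction, at 0.51 (adjusted p = 0.0135). Pyy, peptide YY, rose by 0.51 ± 0.13 (0.61 against 18 weeks). Ghrl, ghrelin, changed by -1.66 ± 0.26, and did not pass against 18 weeks (-0.52, adjusted p = 0.0623). Genes that beta cells keep low while other cells express them, called disallowed, were lower in 15 of 23 cases with a median of -1.10, and had a median of 0.40 against 18 weeks. Ldha, lactate dehydrogenase A, the best known of them, rose from 12 ± 3.08 to 21.4 ± 7.78 CPM (log2 0.84 ± 0.25, adjusted p = 0.00911; 1.48 against 18 weeks).

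**Figure D4:**
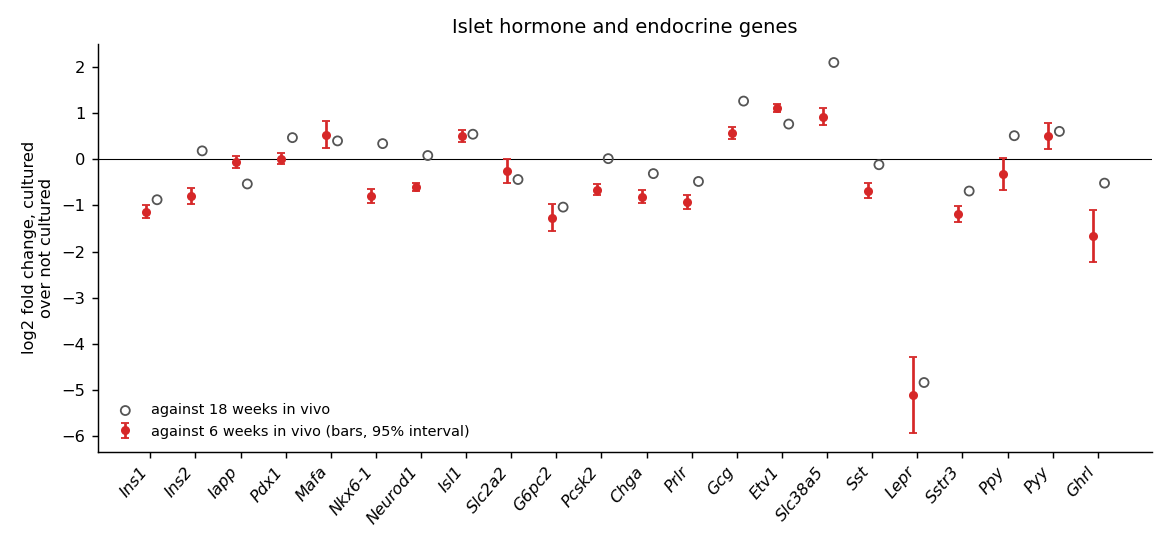
Log2 fold change of cultured over uncultured vehicle islets (y axis) for hormone and endocrine genes (x axis): filled circles against 6 weeks with 95% intervals (n = 5 and 5), open circles against 18 weeks (n = 5 and 6). Ins1, G6pc2 and Lepr are below 0 and Gcg, Mafa and Isl1 above 0 against both, while Ins2 and Nkx6-1 change sign.

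Immediate early genes were far lower in cultured than in fresh islets. These genes are transcribed within minutes of a stimulus without new protein synthesis, and tissue dissociation is a known trigger. Of 30 tested, 22 were lower and 1 was higher, with a median of -1.12, or -1.21 against 18 weeks. The higher one was Atf3, a stress factor, at 0.55 ± 0.20 (adjusted p = 0.0256). That call was lost without fresh library 1 (0.46), without cultured library 2 (0.46) or 4 (0.53), and without fresh libraries 1, 2 and 3 together (0.25). Against 18 weeks Atf3 was at -1.38. Fos, a subunit of the AP-1 transcription factor (chr12:85473890-85477273, plus strand, mm10), stood at 460.4, 523, 895, 824 and 911 CPM in the fresh libraries and 4.83, 2.52, 2.59, 19.5 and 8.99 CPM in the cultured ones. Fresh libraries 1 and 2 were the lowest of the fresh group and still far above every cultured one. The log2 fold change of Fos was -6.57 ± 0.47 (edgeR, adjusted p = 7.2e-08), and -5.45 against 18 weeks.

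Fosb, its paralogue, went from 192 ± 95.7 to 0.536 ± 0.212 CPM (log2 -8.48 ± 0.54; -8.60 against 18 weeks), and Jun, the partner of both, from 371 ± 96 to 23.5 ± 3.63 CPM (log2 -3.98 ± 0.19; -3.09). Egr1, a zinc finger factor induced by serum and glucose, stood at 209, 218, 422, 441 and 427 CPM in the fresh libraries and 8.49, 5.04, 2.84, 61 and 37.1 CPM in the cultured ones. Cultured libraries 4 and 5 carried most of what remained, and its log2 fold change was -3.91 ± 0.64 (edgeR, adjusted p = 1.3e-04). Egr1 did not pass against 18 weeks (-1.71, adjusted p = 0.0937). Nr4a1, an orphan nuclear receptor, changed by -3.13 ± 0.25 (-3.08 against 18 weeks). Zfp36, which destabilises cytokine mRNA, changed by -2.60 ± 0.11, but did not pass against 18 weeks (-0.52, adjusted p = 0.207). Dusp1, a phosphatase that ends MAP kinase signalling, went from 106 ± 27.6 to 12 ± 1.48 CPM (log2 -3.15 ± 0.17; -2.39 against 18 weeks). Btg2, an antiproliferative gene, fell less, from 254 ± 46.8 to 119.7 ± 9.33 CPM (log2 -1.09 ± 0.11; -1.21). The share of counts held by these genes went from 0.233% ± 0.0579 to 0.0426% ± 0.00649, with no overlap.

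The immediate early genes and those of the integrated stress response are known to use different promoter elements, and the 250 bases before the start of their genes (RefSeq, GRCm38.p6) were searched on both strands. The cyclic AMP response element TGACGTCA, bound by CREB-family factors, was present in 3 of 26 immediate early genes (11.5%; Btg2, Dusp1 and Maff) against 1.77% of 27025 genes with a promoter in the table. The amino acid response element, spelled TGATGNAAN, where C/EBP and ATF4 bind, was present in 9 of 27 genes of the integrated stress response (33.3%) against 3.89% of all genes. The serum response element, searched as a CArG box, was in 3 of 26 immediate early genes (Dusp5, Egr2 and Zfp36) against 1.62%. Genes with these elements did not all fall alike. Egr2 was not called against 6 weeks, and passed as higher without fresh libraries 1, 2 and 3 (0.67). Maff was lower, a call lost on leaving out any 1 cultured library. Dusp5 was lower, a call lost against 18 weeks (-0.27) and with length and GC offsets (-0.11). A match is a description of letters and not of binding. The promoters of the 6 genes below are shown because their transcripts went down (Dusp1, Btg2), up (Chac1, Slc7a11, Asns) or were not called (Nupr1) against 6 weeks, with such an element present. Capitals mark the match, as TGACGTCA in the first 2 and as TGATGNAAN or its reverse complement in the others; Slc7a11 has 2 matches.
Dusp1 (chr17:26508473-26508722, minus strand): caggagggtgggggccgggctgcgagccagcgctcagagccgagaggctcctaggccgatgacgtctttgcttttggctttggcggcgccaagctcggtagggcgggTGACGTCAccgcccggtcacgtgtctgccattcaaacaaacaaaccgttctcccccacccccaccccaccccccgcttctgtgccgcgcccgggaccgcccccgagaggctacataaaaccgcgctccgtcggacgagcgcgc
Btg2 (chr1:134079156-134079405, minus strand): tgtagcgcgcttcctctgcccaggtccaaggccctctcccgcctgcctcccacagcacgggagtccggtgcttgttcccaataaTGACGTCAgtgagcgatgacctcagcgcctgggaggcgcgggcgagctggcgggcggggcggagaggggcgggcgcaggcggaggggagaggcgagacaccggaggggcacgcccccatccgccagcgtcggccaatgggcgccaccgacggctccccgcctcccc
Chac1 (chr2:119350992-119351241, plus strand): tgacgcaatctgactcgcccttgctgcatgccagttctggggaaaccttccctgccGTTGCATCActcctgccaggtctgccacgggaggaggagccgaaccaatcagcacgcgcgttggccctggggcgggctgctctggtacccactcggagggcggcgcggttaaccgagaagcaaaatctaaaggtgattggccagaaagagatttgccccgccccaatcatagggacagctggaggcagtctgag
Slc7a11 (chr3:50443614-50443863, minus strand): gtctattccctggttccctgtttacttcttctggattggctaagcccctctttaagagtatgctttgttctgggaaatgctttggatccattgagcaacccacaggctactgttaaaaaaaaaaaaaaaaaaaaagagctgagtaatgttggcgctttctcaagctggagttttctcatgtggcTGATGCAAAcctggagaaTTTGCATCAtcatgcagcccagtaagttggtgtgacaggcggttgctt
Asns (chr6:7693210-7693459, minus strand): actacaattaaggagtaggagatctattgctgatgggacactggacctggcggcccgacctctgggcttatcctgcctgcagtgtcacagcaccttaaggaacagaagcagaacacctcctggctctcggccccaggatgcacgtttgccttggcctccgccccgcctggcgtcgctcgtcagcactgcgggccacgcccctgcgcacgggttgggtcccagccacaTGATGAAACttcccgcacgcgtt
Nupr1 (chr7:126625471-126625720, minus strand): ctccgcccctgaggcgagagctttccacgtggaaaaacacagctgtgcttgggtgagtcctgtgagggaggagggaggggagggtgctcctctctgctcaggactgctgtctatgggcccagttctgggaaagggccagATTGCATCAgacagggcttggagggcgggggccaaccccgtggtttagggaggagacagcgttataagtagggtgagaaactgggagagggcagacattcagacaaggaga

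The integrated stress response, in which ATF4 raises genes of amino acid uptake and synthesis, was higher in culture: 23 of 32 genes were higher and 3 lower, with a median of 0.44, or 1.07 against 18 weeks. Trib3, a pseudokinase that restrains ATF4 and AKT, stood at 5.42, 8.49, 5.12, 7.35 and 13.1 CPM in the fresh libraries and 70.6, 65.1, 85.1, 64.9 and 58 CPM in the cultured ones. No values overlapped, and its log2 fold change was 3.13 ± 0.21 (edgeR, adjusted p = 3.6e-08; 3.71 against 18 weeks). Slc7a11, the cystine transporter whose promoter above holds the element at 2 places, went from 1.44 ± 0.603 to 11 ± 0.788 CPM (log2 2.93 ± 0.20, adjusted p = 4.9e-08; 1.69 against 18 weeks). Chac1, which degrades glutathione, went from 28.4 ± 11.7 to 50.4 ± 5.83 CPM (log2 0.83 ± 0.22; 1.20), with fresh library 5 at 45.7 CPM inside the cultured range.

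Phgdh and Psat1, enzymes of serine synthesis on the same list, rose by 1.89 ± 0.061 and 1.36 ± 0.09 (0.22 and 1.44 against 18 weeks). Asns, asparagine synthetase, rose only from 145 ± 12.8 to 185 ± 10.4 CPM (log2 0.35 ± 0.06; 0.33 against 18 weeks). Nupr1, whose promoter also holds the element, did not pass, at 0.03 ± 0.12 (adjusted p = 0.837), but passed as higher against 18 weeks (0.50). Ddit3, the factor CHOP, rose from 22 ± 4.5 to 46.5 ± 5.29 CPM (log2 1.08 ± 0.12), and Sesn2, a leucine sensor upstream of mTORC1, from 67.8 ± 6.51 to 135 ± 9.59 CPM (log2 1.00 ± 0.067). Fgf21 was the exception with the element, at -1.63 ± 0.27 (adjusted p = 1.2e-04) and 0.02 against 18 weeks.

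**Figure D5:**
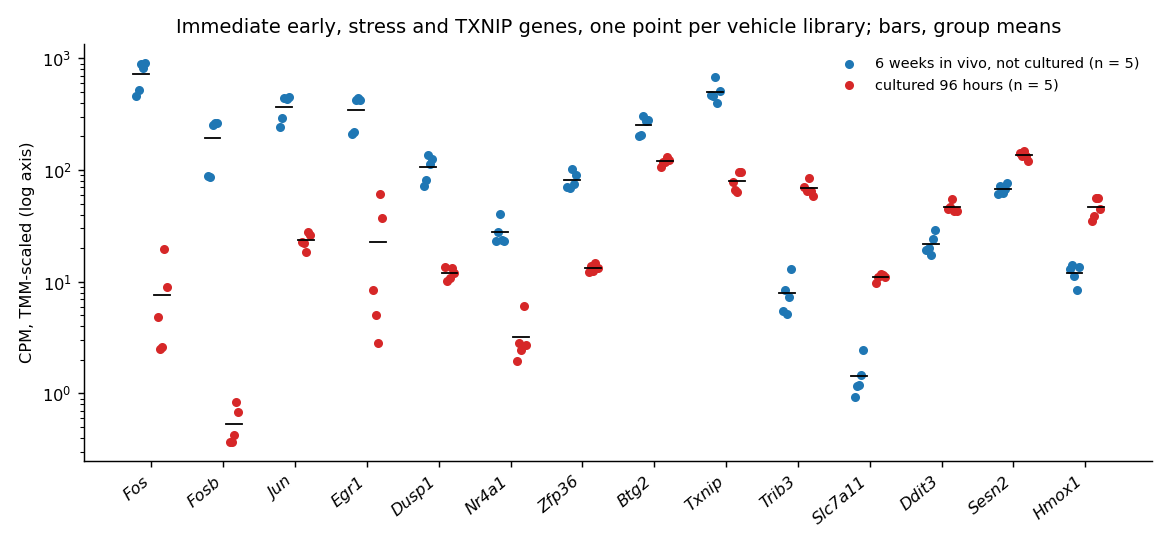
CPM (y axis, log scale) of 14 immediate early, stress and glucose-related genes in fresh (n = 5) and cultured (n = 5) vehicle libraries, with 1 point per library and a bar at the group mean. Fos to Txnip are lower and Trib3 to Hmox1 higher in culture, and no gene shown has overlapping groups.

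Genes of protein folding moved by smaller amounts. Of 30 genes of the unfolded protein response 8 were higher and 17 lower, with a median of -0.16 (-0.35 against 18 weeks). Derl3, a factor that draws misfolded proteins out of the endoplasmic reticulum, stood apart, at 22.8, 20.2, 27.6, 21.9 and 26.1 CPM in the fresh libraries and 3.43, 2.7, 3.37, 2.81 and 2.91 CPM in the cultured ones. Derl3 changed by -2.96 ± 0.11 on the log2 scale (edgeR, adjusted p = 4.3e-11; -2.41 against 18 weeks). Sdf2l1 and Creld2, chaperone partners of the endoplasmic reticulum, changed by -1.10 ± 0.059 and -1.04 ± 0.058. Hspa5, the chaperone BiP, was at -0.16 ± 0.063 (adjusted p = 0.0364), a call lost without fresh library 4 or 5, without cultured library 1, 2, 4 or 5, and without fresh libraries 4 and 5 together (-0.07, adjusted p = 0.245). Among 24 heat shock genes 8 were higher and 13 lower. Hspa1a and Hspa1b, the inducible HSP70 copies, share 65.4% and 68.0% of their sequence with other genes, so their split is uncertain, but both fell, Hspa1a from 73.6 ± 31.9 to 2.05 ± 1.41 CPM (log2 -5.17 ± 0.41; -5.66 against 18 weeks) and Hspa1b by -4.86 ± 0.40.

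Txnip, thioredoxin-interacting protein, is among the genes most responsive to glucose in islets, and it stood at 473, 458, 678, 398 and 508 CPM in the fresh libraries and 79, 66.7, 63.7, 95.2 and 96.3 CPM in the cultured ones. Every fresh value lay well above every cultured one. The change of Txnip was -2.65 ± 0.15 on the log2 scale (edgeR, adjusted p = 7.2e-09; -2.59 against 18 weeks). The glucose-responsive genes, Txnip included, did not move as 1 group. Of 22, 5 were higher and 12 lower, with a median of -0.34 that was 0.11 against 18 weeks. Hmox1, haem oxygenase 1, a target of NRF2 and BACH1, rose from 12.1 ± 2.33 to 46.3 ± 9.81 CPM (log2 1.94 ± 0.16; 2.84 against 18 weeks), while Nqo1, a quinone reductase under NRF2, changed by -0.65 ± 0.14. Of 30 NRF2 and glutathione genes 16 were higher and 10 lower, but of the 21 with at most 5% shared sequence 8 were higher and 10 lower. The metallothioneins, which bind zinc and cadmium, parted: Mt1 did not pass, at -0.02 ± 0.14 (adjusted p = 0.926), and Mt2 stood at 38.2, 39.8, 34.5, 26.2 and 62.3 CPM in the fresh libraries and 1.81, 1.13, 1.88, 2.39 and 1.55 CPM in the cultured ones, a log2 fold change of -4.52 ± 0.25. Against 18 weeks Mt2 was -0.83.

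Inflammatory and interferon transcripts were lower. Of 31 NF-kB and cytokine genes 19 were lower and 6 higher, with a median of -0.66 (-0.12 against 18 weeks), and without fresh libraries 1, 2 and 3 the median was -0.41 with 15 lower. Nfkbia, the inhibitor that NF-kB itself induces, went from 35.7 ± 6.72 to 19.3 ± 2.41 CPM (log2 -0.89 ± 0.12; -0.90 against 18 weeks). Of 35 interferon response genes 28 were lower and 1 higher, with a median of -0.58. Without fresh libraries 1, 2 and 3 it was -0.32 with 18 lower, and against 18 weeks it was -0.28. Fkbp5 and Tsc22d3, targets of the glucocorticoid receptor, changed by -1.03 ± 0.17 and -0.48 ± 0.096, and Fkbp5 was 0.18 against 18 weeks.

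Most cell cycle genes were higher in culture. Of 40 cell cycle genes 34 were higher and 3 lower, with a median of 1.35 (1.07 against 18 weeks), and of the 28 with at most 5% shared sequence 22 were higher and 3 lower with a median of 1.13. Mki67, the Ki-67 antigen of dividing cells, stood at 9.97, 11.1, 15.6, 17.3 and 9.35 CPM in the fresh libraries and 30.3, 31.4, 28.9, 25.8 and 27.6 CPM in the cultured ones, with no overlap and a change of 1.19 ± 0.15 on the log2 scale (edgeR, adjusted p = 1.4e-05; 1.43 against 18 weeks). Some cyclins of the list went the other way, as Ccnd2, the main D cyclin of beta cells, fell from 1312 ± 71.6 to 934 ± 50.5 CPM (log2 -0.49 ± 0.052). The call of Ccnd2 was lost against 18 weeks (-0.17, adjusted p = 0.116). The share of counts of the cell cycle list was 0.154% ± 0.00651 against 0.151% ± 0.00542 (exact two-sided permutation test, p = 0.508). With acinar, Reg and insulin genes left out of the total it was lower in culture, at 0.174% against 0.206%, and against 18 weeks it was higher, at 0.151% against 0.130% (exact permutation tests, adjusted p = 0.0117 and 0.00746). Of 20 clock genes 12 were higher and 7 lower. Arntl, the factor BMAL1, fell from 27.1 ± 3.52 to 15.6 ± 1.03 CPM (log2 -0.80 ± 0.087; -0.98 against 18 weeks) and Dbp, an output factor that BMAL1 drives, rose from 10.6 ± 3.3 to 24.9 ± 2.53 CPM (log2 1.23 ± 0.16; 0.45). Nr1d1, the repressor REV-ERB alpha, changed by -1.38 ± 0.13 but was 0.24 against 18 weeks. The hour of the day at which islets were taken is not given in the sources used here.

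The same split in cadmium islets, which shares no library with the vehicle comparison, was tested on its own. Of 17092 genes tested there, 11064 (64.7%) differed between cultured and fresh cadmium islets, 32.8% higher and 31.9% lower. Of the 16972 genes tested in both, 9871 were called in the same direction, which is 85.3% of the vehicle calls and 90.0% of the cadmium calls, and 2 were called in opposite directions. Past 2-fold, 11.5% of genes were called in cadmium islets (6.82% higher and 4.66% lower), and 1664 were shared with vehicle islets (84.8% and 87.4%) and 0 opposed. Dose, setting and length of cadmium exposure differed between those groups. The difference between the culture effects was called for 0 of 17877 genes (edgeR; smallest adjusted p = 0.825), with 1063 at an unadjusted p under 0.05.

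Single genes are given here with their cadmium and vehicle log2 fold changes side by side. Pnlip was at -16.13 against -15.31, Kdr at -4.23 against -4.32, Fos at -6.90 against -6.57, and Gpnmb at 7.10 against 6.45. Trib3 was at 2.87 against 3.13, and Ins1 at -1.15 against -1.14. The lymphocyte list had a median of 0.01 over 7 genes tested in cadmium islets, against -5.96 over 13 in vehicle islets. These medians cover different genes and cannot be set against each other. Of the 7 genes 3 were lower in cadmium islets and 2 higher. The lower ones, Ighm, Igkc and Jchain, were at -8.07, -9.46 and -5.80, against -9.48, -9.97 and -6.76 in vehicle islets. The fresh cadmium libraries held 0.00203% to 0.0390% lymphocyte transcript. The macrophage list had a median of 0.24 against -0.30. The acinar (-11.10), endothelial (-2.60), class II (-4.21) and immediate early (-1.01) medians kept their sign.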

How the data were processed

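The 30 libraries are RNA-seq of mouse islets, and the 10 vehicle libraries described here are 5 cultured and 5 fresh ones. The authors deposited 1 file per library with raw counts of reads for each Ensembl gene, not normalized. Per the submitters' processing notes, cutadapt 1.13, STAR, HTSeq 0.6.1p1, DESeq2 and build mm10 were used upstream. The sources used here do not give the annotation release, the strand setting or how multi-mapped reads were handled, so counts of near-identical, overlapping and antisense genes are uncertain. Of 54232 gene IDs 54165 matched GENCODE M21 (GRCm38), which gave symbols and coordinates. IDs without a match took up to 0.0172% of counts in any library. Total counts limit what can be seen: 24267100 to 55504925 per library, so genes with few reads are measured less precisely in cultured libraries. No 2 libraries of a group agreed within sampling noise (lowest chi-square 2.77 per degree of freedom).

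Counts of the 10 libraries alone were fitted in edgeR 4.0.16 (R 4.3.3) with its quasi-likelihood test, after filterByExpr (minimum count 10, minimum total 15) and TMM scaling, with Benjamini-Hochberg adjusted p under 0.05 called. Changes past 2-fold were tested with glmTreat. Each list's share of counts was tested by exact two-sided permutation over 252 arrangements, adjusted over 50 shares. The cadmium groups (5 and 4 libraries) and the 18-week vehicle libraries (6) were fitted the same way. Shared sequence is the percent of a gene's 31-base stretches found in transcripts of another gene. The fit was tested on simulated data over 16863 genes and recovered 100% of 50 genes raised by 1 on the log2 scale and 90% of 50 lowered by 1, with 6 false calls. Alternatives were DESeq2 1.42.0, voom of limma 3.58.1, no count filter, upper-quartile scaling, thinning to the cultured depth, single libraries left out, a replicate block, fresh libraries 1 to 3 or 4 and 5 left out, acinar genes left out, all 30 libraries in 1 fit and the 18-week group. Offsets for length and GC and leaving out genes with over 5% shared sequence were added after seeing the data.

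Genes named are a panel, the 10 highest and 10 lowest log2 fold changes among called protein-coding genes with at least 10 CPM in the higher group and no overlap, the 5 genes of smallest p in each direction, and the 4 called genes of smallest p in the main direction of each of 49 lists. The members and lists were chosen with earlier results of these data known. Genes outside that rule, chosen after their values were seen, are Chac1, Clps, Col10a1, Cpb1, Csf1r, Ctsk, Dcn, Dusp5, Egr2, Fam196a, Fgf21, Fn1, Fosb, Gpnmb, Lgals3, Lyz2, Maff, Nupr1, Pdgfrb, Serpini2, Smad9, Tnc and Trem2. Some genes of these lists are not reported here.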

Additional observations from a re-analysis of the deposited data

Results flagged for a closer look

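In 21 of 272 groups of 5 libraries examined (126 genes and 10 shares, fresh and cultured), 1 library stood away from the other 4, by a gap over 0.71 of the group's range. Chance gives about 1 in 20 groups. None of these values was left out of a comparison.

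Among cultured libraries, library 1 had the highest Mafa (560.6 CPM, others at most 432), Slc2a2 (1170.4 CPM), Dbp (29.3 CPM) and share of insulin genes (13.7%), and the lowest ductal share (0.0852%). It held the only Hbb-bs read of culture (0.0369 CPM). Library 2 had the highest Sox10 (5.99 CPM, others at most 3.63) and H2-Aa (7.24 CPM), and the lowest Prlr (468 CPM). Library 3 had the highest Ddit3 (55.5 CPM) and Sox9 (1.49 CPM) and the lowest Neat1 (835 CPM). Library 4 had the highest Nr4a1 (6.04 CPM), Sycn (0.418 CPM) and Gp2 (0.228 CPM, with no count in the other 4).

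Among fresh libraries, library 5 had the highest Krt19 (9.57 CPM, others at most 4.08) and the lowest Smad9 (1.52 CPM). Library 2 had the highest Ppy (3671 CPM, others at most 2477) and Ghrl (6.00 CPM), library 3 the highest Nr4a1 (40.4 CPM) and library 1 the highest Cd3e (0.302 CPM).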

How the results depend on the processing

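The number of genes called in the vehicle comparison, 11933, lay between 9396 and 13740 under every alternative run. It was 13215 with DESeq2, 13740 without the count filter, 11825 with voom, 11106 after thinning to the cultured depth and 11717 with the replicate number as a block. Leaving out 1 library gave 11192 to 11927 in vehicle and 10440 to 11180 in cadmium islets. Same-numbered libraries did not deviate together (correlations -0.12 to 0.12), so the numbers do not pair them. Among genes named, the block ended the call of Hspa5 (-0.16) and made that of C1qa (0.21). The count past 2-fold, 2131, was 1202 without genes of over 5% shared sequence, where the higher part went from 1097 to 426, and 3296 against the 18-week libraries, where the lower part went from 1034 to 2407. Without the count filter the lower part was 1557. The causes were not tested beyond the number of genes each alternative tests. Of 2845 refits of genes among the 126 examined above 15 changed sign after a call, all against the 18-week libraries: Abcc8 (0.21), Acta2 (0.47), Adgre1 (0.58), Atf3 (-1.38), Csf1r (0.45), Fgf21 (0.0234), Fkbp5 (0.18), Ins2 (0.18), Kcnj11 (0.33), Neurod1 (0.0834), Nkx6-1 (0.34), Nr1d1 (0.24), Pcsk2 (0.0157), Rps29 (-0.73) and Sox9 (1.77). Of 118 refits of the 10 shares examined above 2 did the same, both against that group: ductal (0.00675 percentage points higher in culture) and insulin genes (0.385). The immediate early share and the genes Egr1, Sst, Ghrl, Krt19, Mrc1, Ccnd2, Zfp36 and Dusp5 (-0.27) lost their call against 18 weeks with the sign kept. With all 30 libraries in 1 fit Atf3, Dusp5, Fn1, Hspa5, Maff and Sox9 were no longer called. With length and GC offsets Pyy (0.22), Dusp5 (-0.11) and Maff (-0.21) were not. Of the 50 shares tested, 39 passed, and 35 to 40 did under the alternatives.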

Other observations

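Glycolysis and oxidative phosphorylation genes took no single direction once genes with much shared sequence were set aside. Of 26 glycolysis genes 17 were higher and 5 lower in culture with a median of 0.42, but of the 15 with at most 5% shared sequence 7 were higher and 4 lower with a median of 0.15. Gapdh, a glycolytic enzyme with many pseudogenes, went from 7.56 ± 2.13 to 477 ± 56.3 CPM (log2 5.98 ± 0.18; 1.55 against 18 weeks). Of 46 nuclear genes of oxidative phosphorylation 22 were higher and 13 lower (median 0.09), and of the 33 with at most 5% shared sequence 13 were higher and 10 lower (median 0.00). No library had a read on any of the 13 mitochondrially encoded protein genes, so these could not be compared. Cholesterol synthesis had a median of -0.16 over 24 genes, and of the 20 with at most 5% shared sequence 3 were higher and 9 lower. Fatty acid oxidation had a median of -0.20 over 27 genes, 5 higher and 15 lower. Of its 18 genes with at most 5% shared sequence 1 was higher and 12 lower, with a median of -0.23 that was -0.03 against 18 weeks. Lysosome and autophagy genes were higher in 17 and lower in 9 of 28, with a median of 0.20, or 0.52 against 18 weeks.

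Inhba, the activin A subunit, went from 3.24 ± 0.673 to 5.34 ± 1.66 CPM (log2 0.72 ± 0.21; 1.19 against 18 weeks). Of 28 TGF-beta and activin genes 10 were higher and 11 lower, with a median of -0.04 that was 0.69 against 18 weeks. Targets of YAP and SRF, which report on tension in the actin skeleton, were lower in 18 and higher in 5 of 27, with a median of -0.63 that was 0.18 against 18 weeks. Neat1, a long noncoding RNA of nuclear paraspeckles, went from 353 ± 60.2 to 1018 ± 105 CPM (log2 1.53 ± 0.11; 1.18 against 18 weeks), and the long noncoding RNA list was higher in 11 and lower in 2 of 15.

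Smad9, a transducer of BMP signals, was among the 10 largest increases with at most 5% shared sequence, going from 1.77 ± 0.149 to 16.1 ± 1.38 CPM (log2 3.18 ± 0.089, edgeR, adjusted p = 3.2e-12; 3.76 against 18 weeks). Fam196a went from 1.23 ± 0.554 to 26.9 ± 3.45 CPM (log2 4.44 ± 0.23; 3.75), Ctsk, cathepsin K, from 1.1 ± 0.34 to 12.3 ± 5 CPM (log2 3.47 ± 0.30; 3.84), and Tnc, tenascin C, from 1.71 ± 0.418 to 15 ± 5.12 CPM (log2 3.13 ± 0.24; 5.49). The 10 largest decreases with at most 5% shared sequence were Pnlip, Zg16, Gp2, Cel, Cpa1, Sycn, Ctrl, Serpini2, Cpb1 and Clps, products of acinar cells.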
